A study of Mus musculus with 3 samples.

Results

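Caudal cells without brachyury were cells of the gastrulating mouse embryo that carried RNA of the caudal epiblast but no detected RNA of the streak gene brachyury (T). Members were chosen from raw counts of unique molecular identifiers (UMIs) in single cells. A barcode was kept with at least 1000 detected genes and at most 10% mitochondrial UMIs. A member then held at least 2 of the 5 caudal genes Nkx1-2, Cdx1, Cdx2, Foxb1 and Sp8, at 1 UMI or more each, and 0 UMIs of T, Mesp1, Tbx6, Hand1, Elf5, Rhox6 and Rhox9. The 7 excluded genes mark the streak, nascent and extraembryonic mesoderm and trophoblast. Of 21573 kept barcodes, 714 were members. They numbered 69 of 7941 at E7.0, 108 of 5194 at E7.25, and 537 of 8438 in the E7.5 library.

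The cells came from normal embryos of the ARC mouse strain, in 3 groups with 1 droplet library each. The E7.0 and E7.25 groups were labelled by embryonic day alone, and the E7.5 group was the posterior region of the embryo. No group carried a mutant allele or a treatment. Embryos were dissociated with trypsin, and the number pooled in each library is not given in the sources used here. Because each group is 1 library, stage, dissected region and library cannot be told apart, no difference between libraries was tested, and all intervals below are 95% intervals for counting error only. In pools of cells, fewer cells with a transcript and less transcript per cell cannot be told apart from a summed level alone.

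The caudal epiblast is the epithelium beside and behind the primitive streak, and it later supplies spinal cord and paraxial mesoderm from bipotent axial progenitors. WNT and FGF signals sustain it, Cdx factors link those signals to the Hox genes, and brachyury together with Tbx6 carries cells towards mesoderm. Sox2 and the Irx genes mark cells that keep or take an ectodermal and neural course. Sp5 and Sp8 are zinc finger factors linked to WNT signalling, and Nkx1-2 is a homeobox gene long used to mark the progenitor epithelium of the trunk. In the GENCODE M21 annotation of GRCm38, Nkx1-2 spans chr7:132594878-132599637 on the minus strand, Cdx2 chr5:147300805-147307270 on the minus strand, Foxb1 chr9:69757710-69760940 on the minus strand, Sp8 chr12:118846329-118852576 on the plus strand and T chr17:8434423-8442496 on the plus strand, all protein-coding.

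The promoters of 2 genes are shown. Sp5 was chosen for the largest ratio of members to other epiblast cells at E7.5 posterior. That ranking took genes at 50 CPM or more outside the rule, with all members kept. Sp8 was itself a rule gene. Each window runs from 250 bases before to 50 bases after the RefSeq start site on GRCm38.p6, 300 bases in all, 5′ to 3′ on the gene's strand. Capitals mark each CTTTGA, or its reverse complement TCAAAG, the core letters bound by TCF and LEF proteins, the nuclear partners of WNT signalling. The Sp5 window lies on the plus strand at chr2:70474673-70474972. The Sp8 window, on the plus strand at chr12:118846983-118847282, was the first with a match among the 3 listed for that gene.
Sp5: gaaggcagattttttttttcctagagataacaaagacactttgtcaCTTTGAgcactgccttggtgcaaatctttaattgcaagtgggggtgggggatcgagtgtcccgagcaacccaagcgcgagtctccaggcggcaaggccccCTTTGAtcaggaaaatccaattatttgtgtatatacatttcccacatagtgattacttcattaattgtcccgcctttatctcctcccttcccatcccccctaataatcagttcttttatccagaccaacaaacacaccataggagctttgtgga
Sp8: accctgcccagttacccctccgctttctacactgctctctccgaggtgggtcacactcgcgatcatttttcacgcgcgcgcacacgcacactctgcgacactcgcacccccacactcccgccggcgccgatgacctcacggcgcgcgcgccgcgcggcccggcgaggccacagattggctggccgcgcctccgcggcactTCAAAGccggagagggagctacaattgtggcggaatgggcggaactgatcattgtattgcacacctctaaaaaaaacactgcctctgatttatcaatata
The Sp5 window held 2 matches and the Sp8 window, which was chosen for holding a match, 1. The window of Nkx1-2, on the minus strand of chromosome 7, held none. Of 32851 RefSeq promoter windows of this length, 16.003% held at least 1 match on either strand, so a match is common and is a description of letters, not of binding. No other motif was searched.

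Members were a larger share of each later library. They made up 0.869% of kept barcodes at E7.0 (exact Clopper-Pearson interval from 0.677 up to 1.10%). They were 2.08% of the E7.25 cells (1.71 to 2.51%) and 6.36% in E7.5 posterior (5.85 to 6.91%). Each interval covers counting error within 1 library, so the intervals do not test a difference between the 3 libraries. The share of all cells with 2 or more caudal genes moved with it, at 3.83%, 9.59% and 28.2% of kept barcodes. Within those caudal cells the members' share was close to level, at 22.7%, 21.7% and 22.5%. The last library alone was dissected for the posterior region, so its larger share cannot be told apart from the dissection.

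**Figure D1:**
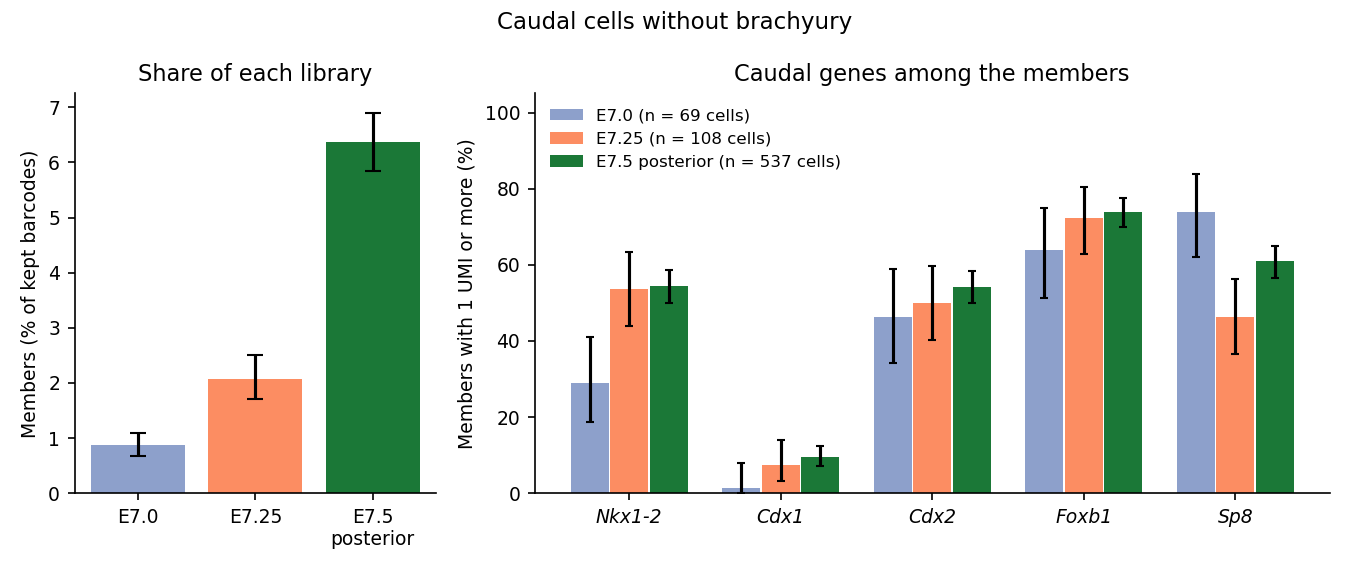
The left panel plots the members' share of kept barcodes in each library, and the right panel the share of members with 1 UMI or more of each caudal gene, with bars for the 95% Clopper-Pearson interval. The member share stands at 0.869%, 2.08% and 6.36%, and Cdx1 is the least detected of the 5 genes in all 3 libraries.

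T and Mesp1 removed most caudal cells from membership. At E7.5 posterior, 2383 cells held 2 or more caudal genes, and 68.3% of them had T, 38.5% Mesp1, 25.8% Tbx6 and 12.1% Hand1. T removed 66.4% at E7.0 and 63.1% at E7.25, and Mesp1 61.8% and 39.2%. The 3 trophoblast genes Elf5, Rhox6 and Rhox9 each occurred in at most 5.62% of caudal cells in any library. Among caudal cells with none of the 6 other excluded genes, the share without T was 70.4% at E7.0 (60.3 to 79.2%, of 98 cells), 49.5% at E7.25 (42.7 to 56.4%, of 218) and 48.0% in E7.5 posterior (45.03 to 51.0%, of 1119). The cells with T and none of the other 6 numbered 29, 110 and 582, and are called brachyury caudal cells below.

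The border at 1 UMI of T was narrow. At E7.5 posterior 161 of the 582 brachyury caudal cells had exactly 1 UMI of T. On the other side of the rule, 623 cells of that library held 1 caudal gene and none of the 7 excluded genes, and 439 and 431 did so at E7.0 and E7.25. When every cell was thinned to 5000 UMIs, 425 of 546 brachyury caudal cells of E7.5 posterior (77.8%) kept a UMI of T, so 0 UMIs does not show that a cell lacked the transcript. Visceral endoderm cells, the 408 cells of that library with a UMI each of Amn, Cubn and Dab2, were set beside the brachyury caudal cells. They showed T at the same depth in 9.31% (6.57 to 12.7%), against a median depth of 9143 UMIs in those cells and 9838.5 in the brachyury caudal cells. How many members had T RNA that was not sampled was not measured.

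Most members met the rule with few UMIs. Of the E7.5 posterior members with Foxb1, 215 of 396 had a single UMI of it, and so did 237 of 327 with Sp8, 188 of 292 with Nkx1-2 and 155 of 291 with Cdx2. Foxb1, a forkhead factor, was found in 73.7% of these members, Sp8 in 60.9%, Nkx1-2 in 54.4% (50.1 to 58.6%), the homeobox factor Cdx2 in 54.2% and its relative Cdx1 in 9.50%. At E7.25 the order was Foxb1 in 72.2%, Nkx1-2 in 53.7%, Cdx2 in 54 of the 108 members, Sp8 in 46.3% and Cdx1 in 7.41%. At E7.0 Sp8 led with 73.9%, followed by Foxb1 with 63.8%, Cdx2 with 46.4%, Nkx1-2 with 29.0% and Cdx1 with 1.45%. Foxb1 with Sp8 was the commonest pair at E7.5 posterior, held by 233 members, and 100 members held that pair alone. Nkx1-2 with Foxb1 came next with 204 members. Just 2 caudal genes were found in 321 of the 537 members, 3 in 157, 4 in 51 and all 5 in 8, with median depths that ran from 9896 UMIs for 2 genes to 11584.5 for 5. At E7.0, 60 of the 69 members held 2 caudal genes, and at E7.25 81 of the 108.

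Detection in visceral endoderm cells was low for Foxb1, Nkx1-2 and Sp8 and not for Cdx2. After thinning to 5000 UMIs, Foxb1 was found in 46.5% of E7.5 posterior members and 2.66% of visceral endoderm cells, Nkx1-2 in 32.0% and 2.13%, and Sp8 in 35.7% and 4.26%. Cdx2, by contrast, was found in 34.9% of members and 23.4% of visceral endoderm cells. The members' shares were set by the rule, and the visceral endoderm shares were not. Unthinned shares at E7.5 posterior were 54.2% of members and 38.0% of visceral endoderm cells for Cdx2. At E7.0, unthinned, Cdx2 was found in 36.1% of visceral endoderm cells, Sp8 in 5.26%, Foxb1 in 0.674% and Nkx1-2 in 0.135%. Cdx2 detection in these cells is therefore not taken as background, and its source was not tested.

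As a check of the label, the members were mostly epiblast cells by their markers. Pou5f1, the core pluripotency factor, had a UMI in 98.1% of E7.5 posterior members, and Pou5f1 together with the epithelial adhesion gene Epcam in 90.1%. Both genes occurred together in 85.5% of members at E7.0 and 86.1% at E7.25, and in 62.9% of all kept cells of E7.5 posterior. All 7 epiblast markers were above 20 CPM (the UMIs of a gene per 1000000 UMIs summed over the cells of a pool). All 7 visceral endoderm markers were too, so this limit alone does not set the label. At E7.5 posterior 94.2% of members held 3 or more epiblast markers, 7.82% 3 or more neural ectoderm markers and 5.77% 3 or more visceral endoderm markers. The 7 neural ectoderm markers, Sox2 among them, summed to 77.1 CPM at E7.0, 128 at E7.25 and 133 in E7.5 posterior. Mesoderm markers were near 0: Mesp1 and Tbx6 by rule, with Msgn1 at 0 as well, and the 7 mesoderm markers summed to 27.3 CPM at E7.5 posterior. The 6 trophoblast markers summed to 308 CPM at E7.0, 254 at E7.25 and 282 in E7.5 posterior, with Elf5, Rhox6 and Rhox9 at 0 by rule. Nearly all of that sum was Wfdc2, at 300.3, 246 and 276 CPM in the 3 libraries. The 5 definitive endoderm markers summed to 180.2, 93.5 and 113 CPM, most of it Trh at 142, 75.2 and 82.8 CPM, and the 5 streak markers, T at 0 by rule, to 189, 78.9 and 74.4 CPM. Node, surface ectoderm, germ cell and blood markers each summed to 25.2 CPM or less in that library.

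A minority of members carried visceral endoderm RNA. At least 2 of Amn, Cubn and Dab2, which form the uptake machinery of the visceral endoderm, were found in 13 of 69 members at E7.0 (18.8%), 13 of 108 at E7.25 (12.04%) and 27 of 537 in E7.5 posterior (5.03%). The 7 visceral endoderm markers summed to 1909 CPM in members at E7.0, 1043 at E7.25 and 471 in E7.5 posterior, and none was at 0 in any library. Results on endoderm genes are therefore given with and without the members, and the cells compared with them, that held endoderm or mesoderm genes (at least 2 of Amn, Cubn and Dab2, at least 2 of Foxf1, Gata4 and Gata6, or any of Foxa2 and Sox17). That left 486 of the 537 E7.5 posterior members. Predicted doublets, which stayed in, were 0, 2 and 22 of the members. Across libraries 14 to 35 barcode sequences recurred in each pair of libraries.

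Depth per cell differed between pools, most at E7.0, where members were deeper than the epiblast cells they are compared with. Detecting a rule gene, or 0 UMIs of an excluded one, depends on depth. Members had a median of 13770 UMIs at E7.0, 9240.5 at E7.25 and 10335 in E7.5 posterior, and their summed counts were 1232248, 1090654 and 6221306 UMIs. Brachyury caudal cells had medians of 13074, 8744.5 and 9838.5. Epiblast cells without caudal genes served as the second comparison. These held 0 UMIs of all 12 rule genes and at least 1 UMI each of Pou5f1 and Utf1, numbered 1419, 673 and 850, and had medians of 10640, 8102 and 9557 UMIs.

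At E7.5 posterior the members lacked most of the Hox and Fgf8 RNA of the brachyury caudal cells and kept more of the epiblast factors Utf1, Pou3f1 and Otx2. Since T chose both pools, these values are a description of how the pools differ, and nothing is read from the counts. Of 2766 genes at 50 CPM or more in either pool, 18 (0.651%) differed at least 2-fold, 9 higher and 9 lower in members (0.325% each), and the median gene differed by 0.02 on the log2 scale. Without the cells that held endoderm or mesoderm genes, 15 differed, 3 higher and 12 lower in members.

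Hoxb1, the hindbrain and posterior streak gene of the first Hox group, had the largest log2 difference after T among genes at 50 CPM or more in either pool, in the E7.25 and the E7.5 posterior libraries. Its level in members was 1.62 CPM at E7.0, 8.25 at E7.25 and 8.84 in E7.5 posterior. In brachyury caudal cells it was 8.07, 89.6 and 93.0 CPM. The log2 ratio at E7.5 posterior was −3.40 (−3.82 to −2.995), and at E7.25 −3.44 (−4.61 to −2.45). Members of these 2 libraries thus sat about as far below their own brachyury cells in each, while the E7.0 pools held too few Hoxb1 UMIs for an interval that leaves out 0. At matched depth 4.05% of E7.5 posterior members had a Hoxb1 UMI (2.53 to 6.13%), near the 2.66% of visceral endoderm cells, against 27.5% of brachyury caudal cells.

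The summed Hox level was also lower in members. The 39 Hox genes summed to 25.2 CPM in members of E7.5 posterior and 165 CPM in brachyury caudal cells, and 22 of the 39 had no UMI in members, so most Hox genes could not be compared 1 by 1. Hoxb2 stood at 4.02 CPM in members and 27.4 in brachyury caudal cells.

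Among the 5 genes that chose the cells, Cdx1 and Cdx2 were lower in members. Cdx1 was 11.7 CPM in members and 55.4 in brachyury caudal cells at E7.5 posterior, a log2 ratio of −2.24 (−2.62 to −1.87), and 13.8 and 61.0 CPM at E7.25. Cdx2 was 85.8 and 176 CPM at E7.5 posterior, and 84.4 and 172 CPM at E7.25. The other 3 rule genes were within 2-fold. Nkx1-2 was 73.0 CPM in members and 107 in brachyury caudal cells of E7.5 posterior, Foxb1 114 and 111, and Sp8 72.3 and 59.8. Every cell of both pools had to hold 2 of these 5 genes, so their levels depend on each other through the rule and nothing is read from them.

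**Figure D2:**
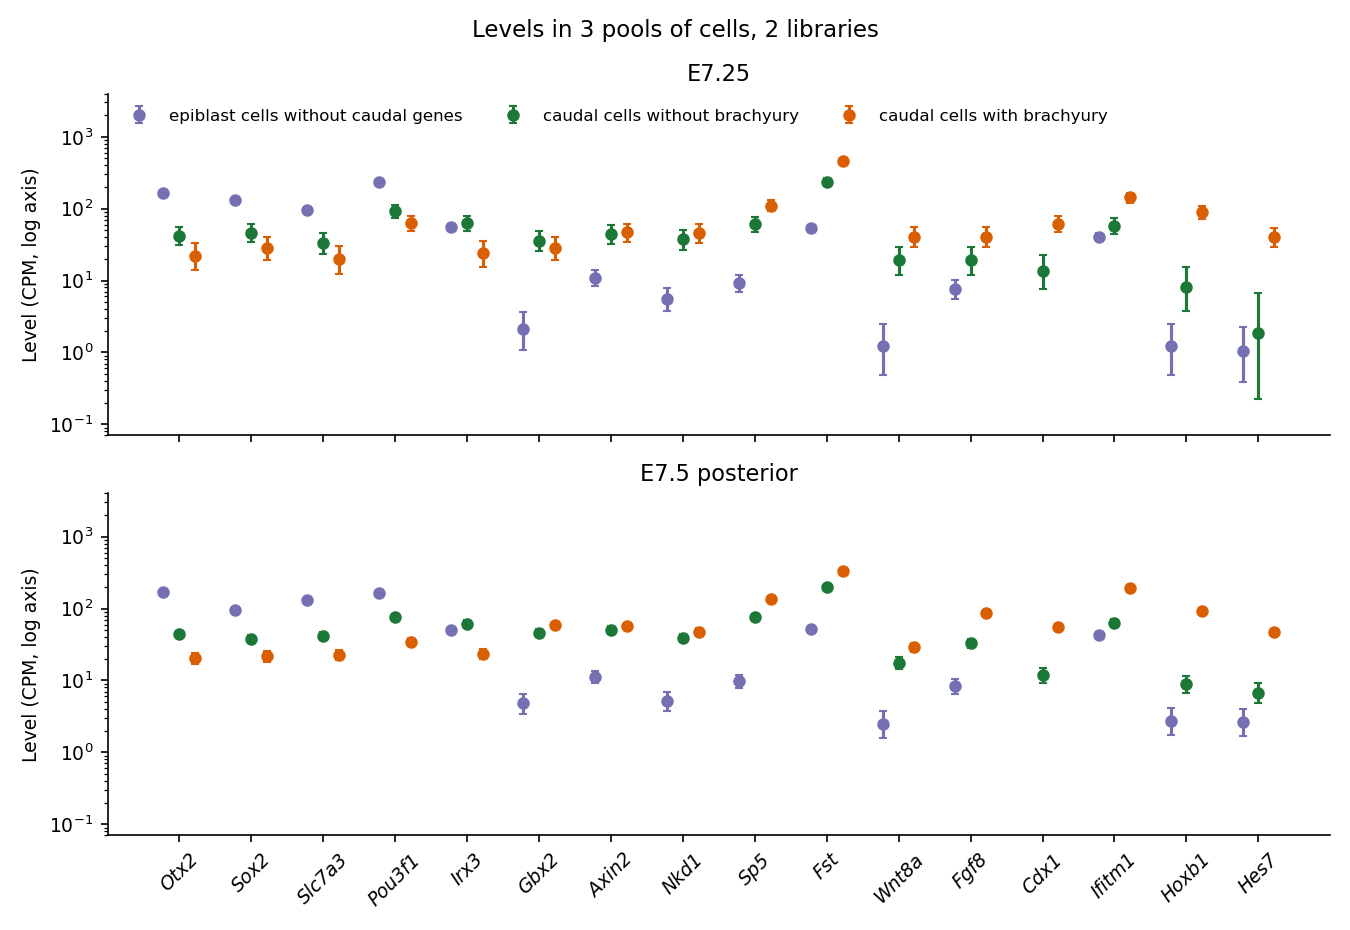
Summed level in CPM, on a log axis, of 16 genes in epiblast cells without caudal genes, in members and in brachyury caudal cells at E7.25 and E7.5 posterior; bars are 95% Poisson intervals, and a pool with 0 UMIs has no point. Hoxb1 stands at 2.75, 8.84 and 93.0 CPM in the 3 pools of E7.5 posterior, and Otx2 at 173, 44.0 and 20.3 CPM.

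FGF and WNT pathway genes differed unequally between members and brachyury caudal cells. Fgf8, the main FGF ligand of the streak, was 33.1 CPM in members and 86.1 in brachyury caudal cells at E7.5 posterior, a log2 ratio of −1.38 (−1.62 to −1.14), and 19.3 and 41.0 CPM at E7.25. The feedback phosphatase Dusp6 was 10.6 and 24.9 CPM at E7.5 posterior. Of 9 FGF ligands, receptors and response genes at 20 CPM or more, these 2 were lower by 2-fold or more, beside 0.87% of all genes at that level, and the other 7 lay within it. Dusp6 passed that level through the brachyury caudal cells alone. Of 11 measured WNT ligands and targets, Rspo3, which amplifies WNT signals, was the 1 beyond 2-fold, at 18.6 CPM in members and 44.4 in brachyury caudal cells. Axin2, the negative feedback target of the pathway, was 50.5 and 56.7 CPM, Nkd1, a second feedback inhibitor, was 39.2 and 47.4 CPM, and Sp5 was 77.2 and 138 CPM. The ligand gene Wnt3a was nearly absent from members, at 2.57 CPM against 17.3. Wnt8a, a ligand of the posterior epiblast, was 17.7 and 29.1 CPM. The feedback targets Axin2 and Nkd1 thus differed by less than the ligand gene Wnt3a.

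Genes of the next mesodermal step were low in members. Of 5 further mesoderm genes at 20 CPM or more, Hes7, Dll3, Aldh1a2 and Rspo3 (above) were lower by 2-fold or more in E7.5 posterior members, beside 0.87% of all genes. All of these were under 20 CPM in members and passed that limit through the brachyury caudal cells alone. Nothing is therefore read from this count. Hes7, the oscillating repressor of the presomitic mesoderm, was 6.75 CPM in members and 46.6 in brachyury caudal cells, and 1.83 and 40.0 CPM at E7.25. Dll3, a NOTCH pathway gene of the same tissue, was 10.8 and 24.9 CPM, and Aldh1a2, which makes retinoic acid in paraxial mesoderm, 1.77 and 20.6 CPM. Of the streak genes, Mixl1 was 2.41 and 20.9 CPM and the endoderm and node factor Foxa2 6.43 and 23.3 CPM. Eomes differed little, at 30.2 CPM in members and 37.0 in brachyury caudal cells.

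A further 4 genes were called lower in members at E7.5 posterior. Ifitm1, a membrane protein gene expressed in streak mesoderm and germ cell precursors, was 64.0 and 195 CPM. Apln, the apelin peptide hormone, was 36.3 and 83.6 CPM. Tcea3, a transcription elongation factor of pluripotent cells, was 19.6 and 51.3 CPM, and Psors1c2 was 13.7 and 59.7 CPM. The same 4 were lower at E7.25, with 57.8 and 143 CPM for Ifitm1, 33.0 and 76.2 for Apln, 11.003 and 50.5 for Tcea3 and 19.3 and 79.1 for Psors1c2. The imprinted gene Peg3 lay just inside 2-fold, at 202 and 401 CPM.

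Among genes higher in members, one group was of the epiblast and early neural plate. Irx3, an Iroquois factor of the neural plate, was 61.9 CPM in members and 23.3 in brachyury caudal cells of E7.5 posterior, a log2 ratio of 1.41 (1.13 to 1.69). At E7.25 it was 62.3 and 23.8 CPM, and at E7.0 26.8 and 22.2, where the interval of the ratio includes 0. Its neighbour in the same gene cluster, Irx5, was 40.5 and 14.5 CPM at E7.5 posterior. Utf1, a chromatin factor of the pluripotent epiblast, was 121 and 48.0 CPM, a ratio of 1.33 (1.14 to 1.53), and the POU factor Pou3f1 76.4 and 34.6 CPM. Otx2, which marks anterior epiblast, was 44.0 and 20.3 CPM, Sox2 37.5 and 21.6 CPM, and the amino acid transporter Slc7a3 41.6 and 22.5 CPM. Of 25 measured pluripotency and epiblast genes, Utf1, Otx2 and Pou3f1 were at least 2-fold higher, beside 0.34% of all genes, none was lower by that much, and the other 22 lay within 2-fold. Their median log2 ratio was 0.30, against 0.01 over all 5289 genes at 20 CPM or more. Of 6 measured neural genes, Irx3 and Irx5 were higher, Zfp703 was lower at 11.3 and 29.3 CPM, and 3 were within 2-fold, among them Ptn, a secreted growth factor, at 58.8 and 31.6 CPM. Later neural markers stayed at the floor, with Sox1 at 0.804 CPM in members.

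The remaining 6 genes called higher in members were visceral endoderm genes: Ttr, Apob, Dab2, Spink1, Apoa1 and Rbp4. Ttr, a serum transport protein, was 114 CPM in members and 37.3 in brachyury caudal cells of E7.5 posterior. With the cells holding endoderm or mesoderm genes left out, Ttr was 5.80 and 2.63 CPM, Apob 2.90 and 2.81 CPM, and Apoa1 7.79 and 9.01 CPM. No visceral endoderm gene was then beyond 2-fold among the 2 still at 20 CPM. Hoxb1 without these cells was 9.78 and 99.1 CPM and Irx3 64.1 and 21.95 CPM, as far apart as with them.

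Epithelial and cell cycle genes did not separate the pools by 2-fold in E7.5 posterior. All 11 measured epithelial genes were within it, and their median log2 ratio was −0.04. Epcam was 341 CPM in members and 259 in brachyury caudal cells, and E-cadherin (Cdh1) 100 and 120 CPM. The mesenchymal intermediate filament Vim was 47.3 and 80.3 CPM and N-cadherin (Cdh2) 13.3 and 25.7 CPM, both within 2-fold. All 18 S phase genes and all 18 G2 and mitosis genes were within 2-fold, with median log2 ratios of 0.00 and −0.07, as were all 17 measured glycolysis genes. Over all genes at 20 CPM or more, 0.34% were higher and 0.87% lower by 2-fold, so nothing is read from these counts.

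At E7.25 the comparison gave 22 genes beyond 2-fold of 2950 (0.746%), 7 higher and 15 lower in members. Besides the genes above, Lef1, a TCF family partner of WNT signalling, was 30.3 CPM in members and 73.4 in brachyury caudal cells, and Sfrp1, a secreted WNT antagonist, was 50.4 and 14.3 CPM. Lef1 was 36.0 and 60.6 CPM at E7.5 posterior. Of 13 WNT ligands and targets measured at E7.25, 5 were at least 2-fold lower in members, namely Lef1, Tcf7, Wnt8a, Wnt5b and Wnt3, beside 1.83% of all genes at 20 CPM. The epithelial genes Krt19 and Crb3 were at least 2-fold higher there (of 12 measured), beside 1.15% of all genes. Whether these lists differ between the libraries was not tested. At E7.0, where the brachyury caudal pool held 29 cells and 495860 UMIs, 57 of 2918 genes (1.95%) were beyond 2-fold. Of the 14 measured visceral endoderm genes, 13 were at least 2-fold higher in members there, beside 3.85% of all genes at 20 CPM, and their summed level was 5150 CPM in members and 827 in brachyury caudal cells. Fgf8 was 65.7 and 86.7 CPM at E7.0, and 64.8 and 55.99 CPM without the cells that held endoderm or mesoderm genes, which turns its direction. Cdx2 was 32.5 and 58.5 CPM.

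Levels differed in steps with the number of brachyury UMIs, not only at its first UMI. In E7.5 posterior cells that met the other conditions, Hoxb1 was 8.84 CPM at 0 UMIs of T, 32.4 at 1, 55.5 at 2 to 4 and 174 at 5 or more, over 537, 161, 202 and 219 cells. The rule gene Cdx1, from which nothing is read, went from 11.7 to 31.3, 44.0 and 84.4 CPM over the same steps. Wnt3a went from 2.57 to 7.68, 18.97 and 23.2 CPM, and Fgf8 from 33.1 to 62.0, 88.4 and 102 CPM. Fst, the secreted activin antagonist follistatin, went from 197 to 219, 320 and 440 CPM. Cells with a single T UMI thus lay between the members and cells with more T for Hoxb1, Wnt3a, Fgf8 and Fst.

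In the other direction, Utf1 went from 121 to 78.5, 53.2 and 19.8 CPM, and Irx3 from 61.9 to 40.6, 19.4 and 13.5 CPM. Sox2 was 37.5, 31.8, 22.7 and 12.7 CPM. The DNA methyltransferase gene Dnmt3b was 1077, 931, 808 and 661 CPM. Pou5f1 ran opposite to these epiblast genes, at 682, 714, 770 and 860 CPM. The rule gene Foxb1 was 114, 115, 102 and 115 CPM, and Axin2 was near level at 50.5, 54.3, 52.3 and 62.4 CPM. The same cells set the T UMIs and the other genes' UMIs, so depth per cell is shared between them.

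**Figure D3:**
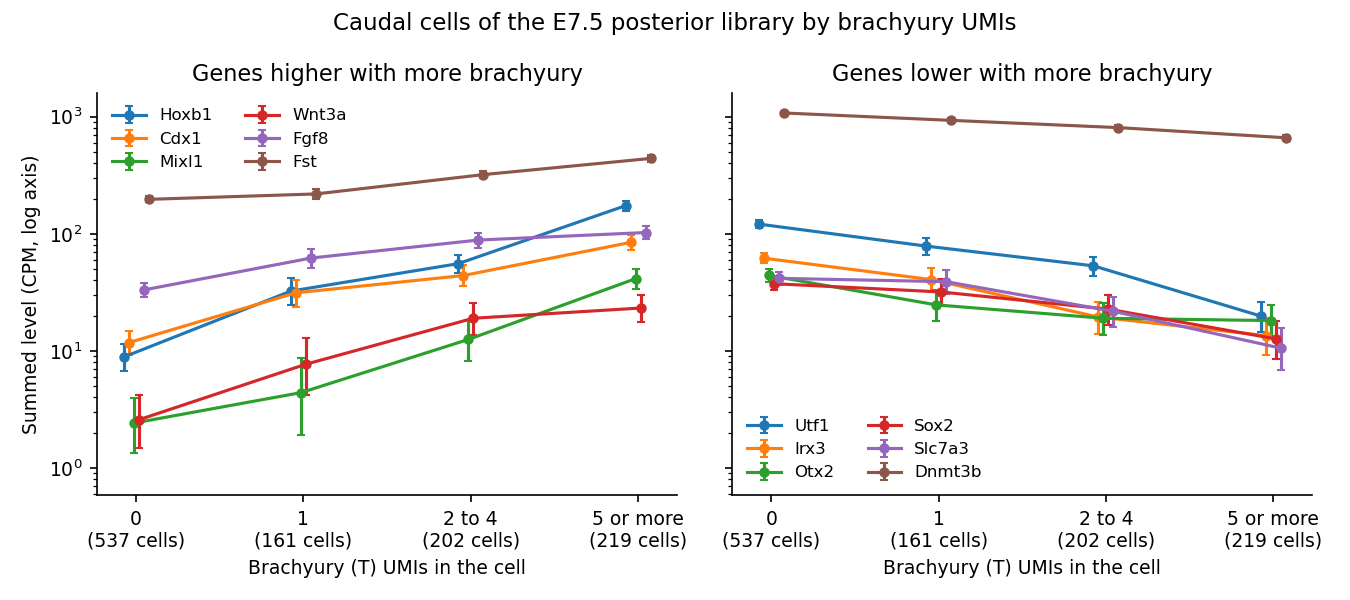
Summed level in CPM, on a log axis, of 12 genes in E7.5 posterior caudal cells grouped by their UMIs of T, with 95% Poisson intervals. Hoxb1 climbs from 8.84 to 174 CPM and Utf1 descends from 121 to 19.8 CPM, and the members are the leftmost group of each panel.

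Against epiblast cells without caudal genes, members of E7.5 posterior held more WNT target RNA and less RNA of anterior and pluripotency factors. Absence of the caudal genes and presence of Pou5f1 and Utf1 chose the comparison cells, so those genes are no finding. Of 2760 genes at 50 CPM or more, 42 (1.52%) were beyond 2-fold, 35 higher (1.27%) and 7 lower (0.254%) in members. Without the cells that held endoderm or mesoderm genes, 36 were, 29 higher and 7 lower.

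At E7.5 posterior Sp5 had the largest ratio among genes at 50 CPM or more that the rule did not use. Its level in members was 67.4 CPM at E7.0, 60.5 at E7.25 and 77.2 in E7.5 posterior, and in epiblast cells without caudal genes 15.8, 9.22 and 9.73 CPM. The log2 ratio was 2.09 (1.72 to 2.45), 2.71 (2.17 to 3.26) and 2.99 (2.65 to 3.34), so the members were above the comparison cells in each of the 3 libraries. Without the cells that held endoderm or mesoderm genes, Sp5 at E7.0 was 38.5 CPM in members and 9.96 in the comparison cells. At E7.5 posterior Gbx2 then passed 50 CPM, at 50.6 CPM in members and 4.78 in the comparison cells. Its ratio was then above that of Sp5, at 68.7 and 8.34 CPM. Axin2 was 41.4, 44.0 and 50.5 CPM in members against 13.1, 10.97 and 11.2 CPM. Nkd1 was 14.6, 37.6 and 39.2 CPM in members against 5.99, 5.57 and 5.15 CPM. Of 8 WNT ligands and targets measured at E7.5 posterior, Axin2, Sp5 and Nkd1 were at least 2-fold higher and none lower, beside 1.28% of all genes higher at 20 CPM. The 8 include the rule gene Sp8, whose absence chose the comparison cells, so its difference is no finding. Axin2, Sp5 and Nkd1 were under 20 CPM in the comparison cells and counted as measured through members alone. Nothing is therefore read from this count. The promoter of Sp5 shown above holds the TCF and LEF letters, as do 6 of the 26 genes with a RefSeq window among the 35 higher ones (23.1%), against 18.2% of all genes with a window and 0 of 4 among the 7 lower genes. The 6 include the rule gene Sp8.

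The homeobox gene Gbx2, which marks the posterior side of the midbrain and hindbrain border and the caudal epiblast, was 46.5 CPM in members of E7.5 posterior and 4.81 in epiblast cells without caudal genes. It was 35.8 and 2.09 CPM at E7.25, and 5.68 and 0.461 CPM at E7.0. Fst was 257, 235 and 197 CPM in members of the 3 libraries in stage order and 86.9, 53.3 and 52.8 CPM in the comparison cells. Meis2, a TALE homeobox cofactor, was 64.6 and 14.1 CPM at E7.5 posterior, the cell cycle inhibitor gene Cdkn1a 52.2 and 7.22 CPM, the growth factor gene Pdgfa 60.3 and 13.4 CPM, and Cyclin D2 (Ccnd2) 101.3 and 30.9 CPM. Ptn was 58.8 and 25.8 CPM. Fgf8 was 33.1 and 8.36 CPM at E7.5 posterior and 19.3 and 7.66 CPM at E7.25, but 65.7 and 74.7 CPM at E7.0. So Fgf8 separated members from other epiblast cells in the later libraries and not in the first.

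Among genes at 50 CPM or more, Otx2 was the lowest in E7.5 posterior members relative to other epiblast cells. It was 82.0 CPM in members at E7.0, 42.2 at E7.25 and 44.0 in E7.5 posterior, against 152, 167 and 173 CPM. The log2 ratio at E7.5 posterior was −1.97 (−2.16 to −1.78). Slc7a3 was 41.6 and 132 CPM at E7.5 posterior, Sox2 37.5 and 96.3 CPM, the microtubule binding gene Map7d3 24.6 and 54.7 CPM, Pou3f1 76.4 and 167 CPM, and Sfrp1 36.5 and 73.3 CPM. The seventh gene, Utf1, at 121 and 357 CPM, had chosen the comparison cells. Sox2 had a UMI, at matched depth, in 15.6% of members (12.6 to 19.06%), 38.0% of epiblast cells without caudal genes, 7.51% of brachyury caudal cells and 1.86% of visceral endoderm cells of E7.5 posterior. For Sox2, members lay between the epiblast and brachyury pools and above the visceral endoderm cells.

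Not every epiblast gene was lower. Of 25 measured pluripotency and epiblast genes at E7.5 posterior, Otx2, Sox2, Slc7a3 and Pou3f1 were lower by 2-fold or more (0.174% of all genes at 20 CPM were), and 18 lay within 2-fold. Utf1 was lower as well, but its detection chose the comparison cells, so it is no finding. Nanog, the pluripotency homeobox factor, was higher in members, at 21.2 CPM against 9.16 in epiblast cells without caudal genes, and 15.6 against 7.14 CPM at E7.25. Pou5f1 was 682 and 680 CPM, although its detection was required in the second pool alone, and Dnmt3b was 1077 and 1527 CPM. Irx3 was 61.9 and 49.9 CPM at E7.5 posterior and 62.3 and 55.5 CPM at E7.25, within 2-fold in both libraries. At E7.25, where 42 of 2884 genes (1.46%) were beyond 2-fold, Otx2, Sox2, Slc7a3 and Pou3f1 were again lower (of 23 measured, beside 0.715% of all genes at 20 CPM). Utf1 was lower there too, again by the choice of the comparison cells. Irx3 thus separated members by 2-fold from brachyury caudal cells and not from other epiblast cells in these 2 libraries. E7.0 differed: without the cells that held endoderm or mesoderm genes, Irx3 was 32.4 CPM in members. It was then 6.82 CPM in epiblast cells without caudal genes and 26.8 in brachyury caudal cells, so there it separated members from the epiblast cells instead.

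The visceral endoderm genes were the other large set higher in members than in epiblast cells without caudal genes: 11 of 12 measured were at least 2-fold higher at E7.5 posterior, beside 1.28% of all genes at 20 CPM, with a median log2 ratio of 1.49. Without the cells that held endoderm or mesoderm genes, 0 of the 2 still measured were beyond 2-fold, with a median of −0.02. Ttr was then 5.80 CPM in members and 4.66 in epiblast cells without caudal genes, and Sp5 68.7 and 8.34 CPM.

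Levels also graded with the number of caudal genes found in a cell. Among E7.5 posterior cells without the 7 excluded genes, Otx2 was 153 CPM with no caudal gene, 81.3 with 1, 55.5 with 2, 37.3 with 3 and 5.58 with 4 or 5. The group with no caudal gene also had to hold a UMI of Pou5f1, and the other groups did not. The first step therefore compares cells chosen in unlike ways. Sp5 was 20.9, 52.4, 67.4, 85.4 and 103 CPM over the same steps, and Gbx2 5.34, 18.3, 33.8, 62.4 and 65.5 CPM. Utf1 was 283, 163, 138, 117 and 51.6 CPM and Fst 54.1, 104, 163, 220 and 299.8 CPM. Hoxb1 stayed at 3.805, 3.67, 5.92 and 8.69 CPM up to 3 caudal genes and was 23.7 CPM with 4 or 5. Irx3 showed no such order, at 51.1, 70.8, 67.4, 58.3 and 44.6 CPM. Ttr was 467 CPM in the cells with 1 caudal gene, which are not members. In members it was 179 CPM with 2 caudal genes, 30.7 with 3 and 16.7 with 4 or 5.

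Across stages, members held more Gbx2 and Irx3 RNA at E7.25 than at E7.0, and less Eomes and Fgf8 RNA. From E7.0 to E7.25, 130 of 2970 genes (4.38%) were beyond 2-fold, 52 higher and 78 lower. Of these, 18 of the higher and 38 of the lower genes were beyond 2-fold in the same direction in all other kept cells of the same libraries, so such a gene is not particular to members. Other scalings move this comparison: with median of ratios size factors every log2 ratio shifts by −0.12 and the split is 32 higher and 120 lower.

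Nkx1-2 had the largest ratio of E7.25 to E7.0 among the 52 higher genes, at 17.9 CPM in members of E7.0, 77.0 at E7.25 and 73.0 in E7.5 posterior. The log2 ratio of E7.25 to E7.0 was 2.11 (1.42 to 2.86), and 2.13 in all other cells. Cdx2 was 32.5, 84.4 and 85.8 CPM and Foxb1 59.2, 118 and 114 CPM. Sp8 was 53.6, 54.1 and 72.3 CPM. These 4 genes served in the rule, so their levels in members describe which genes brought cells in. Gbx2 was 5.68, 35.8 and 46.5 CPM in members, with a ratio of 2.65 (1.48 to 4.06) between the first 2 libraries and 1.37 in other cells.

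Of 6 measured neural genes, 5 were at least 2-fold higher at E7.25 than at E7.0 and none lower, beside 3.38% of all genes higher at 20 CPM. Irx5, Crabp2, Crabp1 and Ptn were under 20 CPM at E7.0 and counted as measured through E7.25 alone. Nothing is therefore read from this count. Irx3 was 26.8, 62.3 and 61.9 CPM in the 3 libraries in stage order, and Irx5 17.9, 39.4 and 40.5 CPM. Crabp2, a retinoic acid binding protein, was 14.6, 36.7 and 56.1 CPM, its relative Crabp1 13.8, 29.3 and 16.2 CPM, and Ptn 18.7, 38.5 and 58.8 CPM. Under the shift of −0.12 given above, the log2 ratios of Ptn (1.04) and Crabp1 (1.09) fall under 2-fold. The neural median log2 ratio was 1.12 in members and 0.85 in other cells. Cdkn1a was 15.4, 55.0 and 52.2 CPM and Ccnd2 46.3, 130.2 and 101.3 CPM.

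Of 6 measured streak genes, 5 were lower by 2-fold or more at E7.25 than at E7.0, beside 3.65% of all genes, with a median log2 ratio of −1.53, and −2.12 in other cells. Lhx1, Tdgf1 and Fgf8 were under 20 CPM at E7.25 and counted as measured through E7.0 alone. Nothing is therefore read from this count. Eomes, the T-box factor of early streak and trophoblast, was 106, 43.1 and 30.2 CPM in members. Lhx1, a LIM factor of anterior streak and mesoderm, was 25.2, 3.67 and 6.43 CPM, and Tdgf1, the NODAL co-receptor, 32.5, 2.75 and 4.18 CPM. Without the cells that held endoderm or mesoderm genes, Lhx1 in members was 8.10, 1.09 and 3.44 CPM, under the limit of 20 CPM, and 3 of the 4 streak genes then measured, Eomes, Fgf8 and Tdgf1, were lower at E7.25. Tdgf1 was then 35.5, 3.28 and 4.53 CPM. Fgf8 was 65.7, 19.3 and 33.1 CPM. Fgf5, the FGF ligand of the early epiblast, was 62.5, 23.8 and 15.6 CPM. Sp5 was near level in members, at 67.4, 60.5 and 77.2 CPM, while in all other cells it was 129, 48.2 and 89.5 CPM. Without the members that held endoderm or mesoderm genes it was 38.5, 57.96 and 68.7 CPM, so the level at E7.0 rested in part on them. Otx2 was 82.0, 42.2 and 44.0 CPM, and Sox2 34.1, 45.8 and 37.5 CPM.

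**Figure D4:**
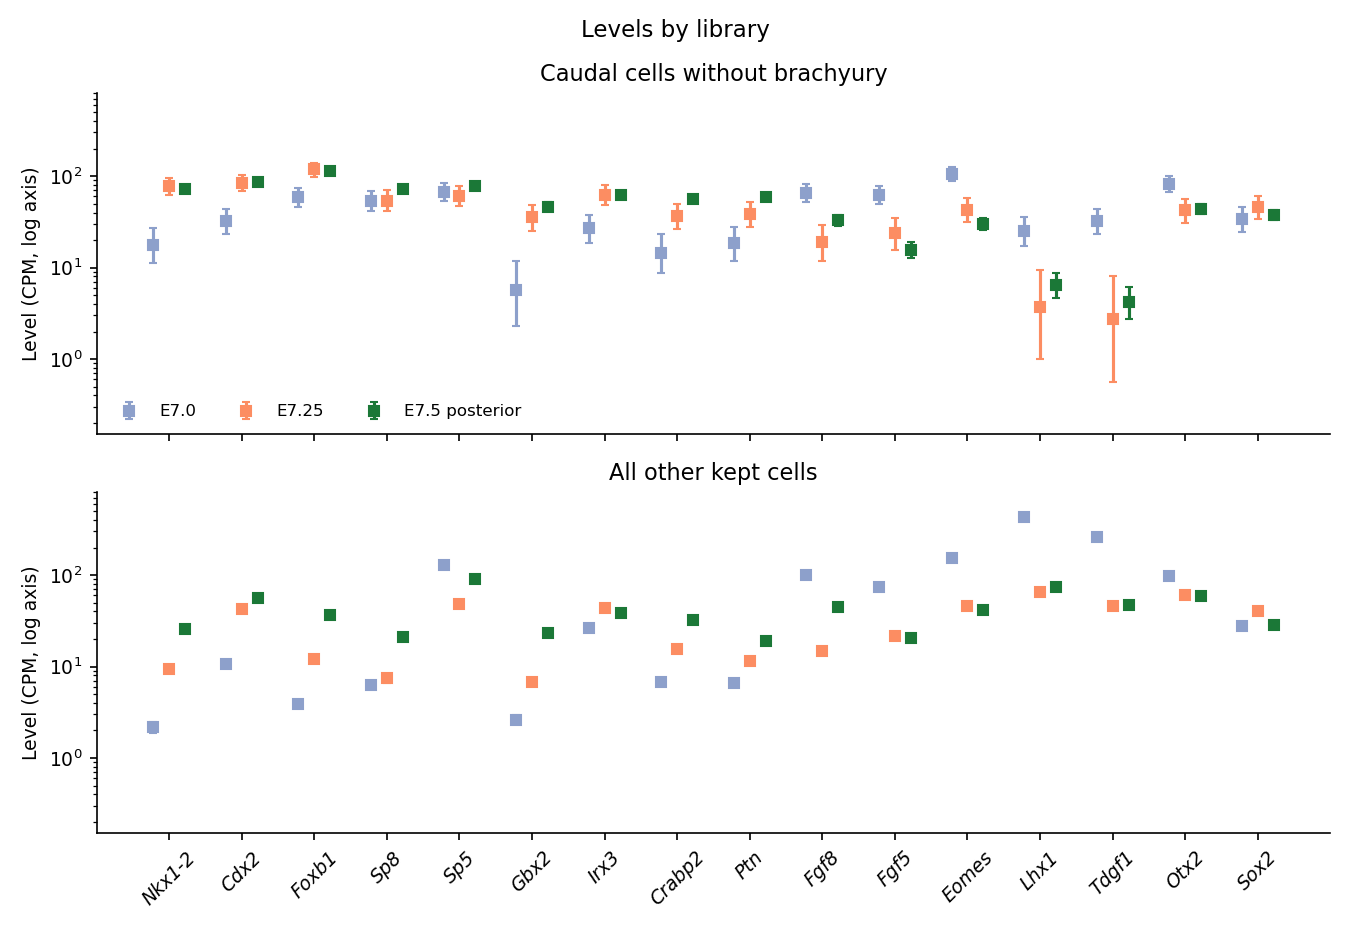
Summed level in CPM, on a log axis, of 16 genes in members (top) and all other kept cells (bottom) of the 3 libraries, with 95% Poisson intervals. Nkx1-2 stands at 17.9, 77.0 and 73.0 CPM in members and Eomes at 106, 43.1 and 30.2 CPM.

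From E7.25 to E7.5 posterior few genes of members were beyond 2-fold. Of 2929 genes 77 (2.63%) were beyond 2-fold, 38 higher and 39 lower. Of these, 24 of the higher and 33 of the lower genes were beyond 2-fold in the same direction in other kept cells. With TMM factors every log2 ratio shifts by 0.11, and the split is 55 higher and 27 lower. The 11 measured companions of the caudal epiblast, the 9 WNT genes and the 5 neural genes were all within 2-fold. Only 3.45% of all genes at 20 CPM were beyond it, so nothing particular to these lists is read from that. In other kept cells Nkx1-2 was 9.47 and 25.5 CPM and Foxb1 12.2 and 36.2 CPM, but both were rule genes, whose detection chose the members and not the other cells, so nothing is read from that contrast.

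Genes beyond 2-fold in this step included histone, glycolysis and early response genes. Hist1h2ap, a histone gene whose transcripts mostly lack a poly(A) tail, was 819, 38.5 and 189 CPM in members of the 3 libraries in stage order, and 737, 47.0 and 180 CPM in other cells. The glycolytic enzyme gene Eno1 was 514 CPM at E7.25 and 1170.0 in E7.5 posterior in members, and 452 and 1109 CPM in other cells. The RNA binding gene Trim71 was 116 and 55.8 CPM, and the activin receptor gene Acvr2b 124 and 58.3 CPM. The early response genes Fosb and Jun were 30.3 and 10.1 CPM and 77.9 and 37.0 CPM. For these 6 genes the ratio in members lay within 0.36 of that in other cells on the log2 scale. Hes1, a NOTCH target, was 12.8 and 32.0 CPM in members and 24.1 and 41.3 CPM in other cells.

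From E7.0 to E7.5 posterior 67 of 2862 genes (2.34%) were beyond 2-fold, 17 higher and 50 lower. In other kept cells, 8 of the higher and 24 of the lower genes were beyond 2-fold in the same direction, so such a gene is not particular to members. The higher genes included Nkx1-2, Crabp2, Cdkn1a, Ptn and Irx3 (values above), the imprinted gene Phlda2 at 22.7 and 78.0 CPM, and the actin binding peptide gene Tmsb4x at 104 and 307 CPM. Of 14 measured visceral endoderm genes, 12 were lower by 2-fold or more, beside 2.23% of all genes lower at 20 CPM. Their summed level in members was 5150 CPM at E7.0, 2932 at E7.25 and 1636 in E7.5 posterior, with Ttr at 519, 237 and 114 CPM and Apoa1 at 502, 270 and 86.2 CPM. The share of members with 2 or more of Amn, Cubn and Dab2 moved with it, from 18.8% to 12.04% and 5.03%. Without the cells that held endoderm or mesoderm genes the count is 45, 23 higher and 22 lower, and Ttr in members was 7.09, 17.5 and 5.80 CPM. Irx3 was then 32.4 CPM at E7.0 and 64.1 in E7.5 posterior, just under 2-fold.

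Members were not uniform. Leiden clustering of the 714 members gave 7 clusters, which are a description and carry no test. Cluster 0, with 175 cells of which 171 came from E7.5 posterior, had Cdx1, Meis2, Gbx2, Cdx2, Nkd1 and Wnt8a among its leading genes and is caudal epiblast-like, on 3 markers that the rule had used. Cluster 1, with 172 cells of which 169 came from E7.5 posterior, was led by Otx2, Irx5, Slc7a3, Sfrp1 and Irx3 and is epiblast-like, on 5 markers. Between these clusters Otx2 was 10.9 and 82.5 CPM, Cdx2 145 and 24.8, Gbx2 76.5 and 26.9, Sox2 24.2 and 56.0 and Irx3 40.5 and 90.1 CPM. Hoxb1 was 18.8 CPM in cluster 0 and 2.95 in cluster 1. Otx2, Cdx2, Gbx2, Sox2 and Irx3 are leading genes of these clusters, so their values describe the clusters and show nothing beyond them.

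Cluster 2, with 169 cells, 160 of them from E7.5 posterior, had a single caudal marker and stayed unnamed. Its leading genes included Ung and Ccne2, which act in S phase, and Fgf8, and its levels of Otx2 (35.2 CPM) and Cdx2 (91.8 CPM) lay between those of clusters 0 and 1. Cluster 3 (94 of 96 cells from E7.25) and cluster 4 (45 of 46 from E7.0) were each nearly 1 library and stayed unnamed. Cluster 4 was led by histone genes and also by Tdgf1, Fgf5 and Eomes. Cluster 6, with 13 cells and a median of 0.114% mitochondrial UMIs, was unnamed as well.

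Cluster 5, with 43 cells, was visceral endoderm-like on all 7 markers and held 10 members of E7.0, 10 of E7.25 and 23 of E7.5 posterior. Its Ttr level was 2177 CPM and that of the epithelial keratin gene Krt18 1347 CPM, against at most 22.1 and 253 CPM in the other clusters. Pou5f1 was 131 CPM in it, and at least 677 CPM in every other cluster. Cdx2 was 96.0 CPM in it, Foxb1 29.6 and Nkx1-2 9.88 CPM. Sp5 was also high there, at 205 CPM, above the 97.8 CPM of cluster 0. Its median depth was 14307 UMIs and 5 of its cells (11.6%) were predicted doublets, against 2.86% of cluster 0. These cells meet the rule and go against the label, and their part in results other than those given without them was not tested.

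**Figure D5:**
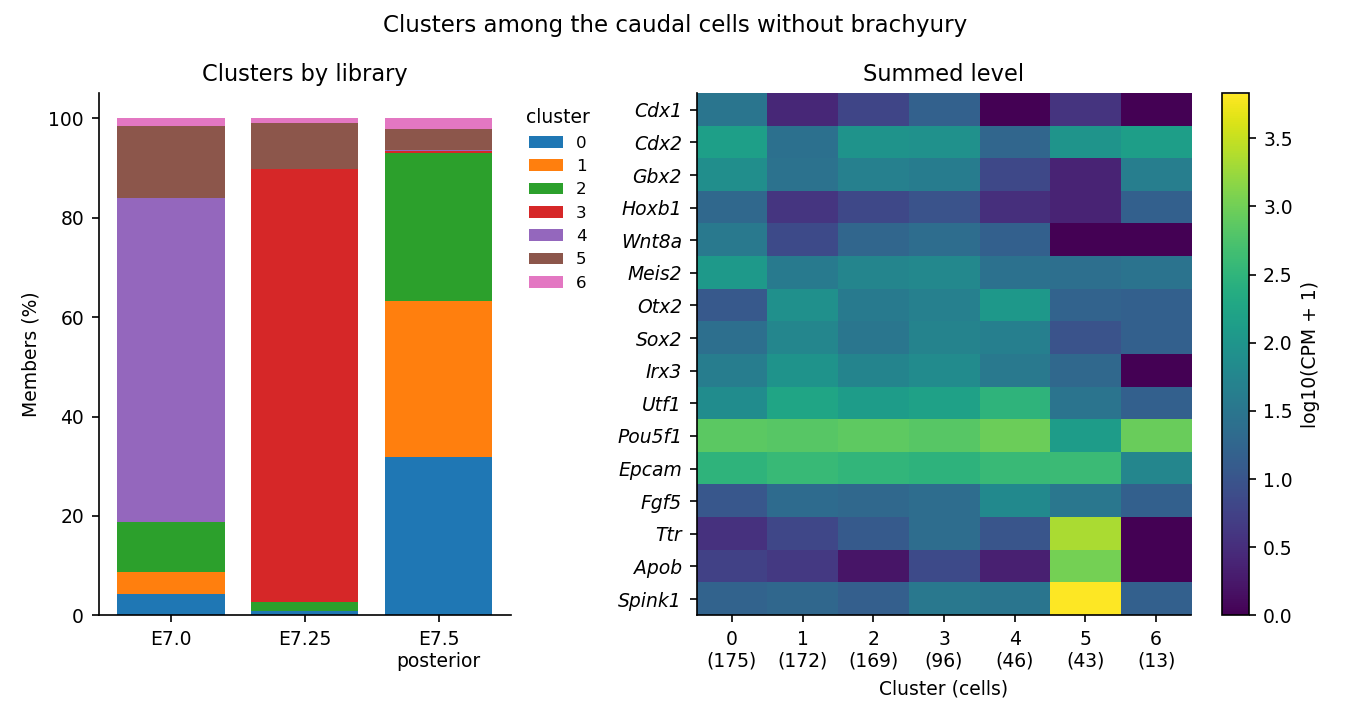
The left panel stacks the share of each library's members in the 7 clusters, and the right panel shows log10(CPM + 1) of 16 genes in each cluster as colour, with cell numbers under the cluster. Clusters 3 and 4 fill most of E7.25 and E7.0, and Ttr, Apob and Spink1 are bright in cluster 5 alone.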

How the data were processed

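Single-cell RNA was measured in 3 droplet libraries of mouse embryos (E7.0, E7.25, E7.5 posterior), 1 per group. The deposited values are raw counts: each is the number of UMIs of a gene under a barcode, and the file headers name Cell Ranger 6.0.1. The files hold called cells, unscaled. The genome build is not given in the sources used here, and the droplet kit was 10x Genomics 3', per the labels' protocols.

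Members and gene lists were chosen with earlier results of these data known. Counts were summed over the cells of a pool, divided by the pool's total and given as CPM. Log2 ratios have exact conditional binomial 95% intervals, levels exact Poisson intervals and shares Clopper-Pearson intervals. All cover counting error only, and with 1 library per group there is no test. A gene was called at a 2-fold or larger difference and 50 CPM or more in either pool. Genes of the 30 lists were counted at 20 CPM or more, with 0 UMIs set to a floor of 3 in medians. Named genes are the 12 rule genes, listed genes at 20 CPM or more and the 10 highest and 10 lowest ratios of each comparison (mitochondrial, ribosomal, predicted, X-inactivation and Y-linked genes aside). Wnt3a, Wnt8a, Sox1 and other listed genes under 20 CPM in a pool are named for the levels in their pathway. The ratio and call code was tested on simulated data.

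Of 27873 barcodes, 21573 were kept. Clusters used 1500 variable genes, 20 principal components, 15 neighbours and resolution 0.5 (scanpy 1.11.5, leidenalg 0.10.2). Predicted doublets were marked with Scrublet in scanpy and kept. At E7.5 posterior its automatic limit marked 0 cells, so the 570 highest scores were marked. TMM factors came from edgeR 4.0.16, used for scaling alone. Of the files' gene identifiers, 32158 were in GENCODE M21 and 127 were not. Promoters came from RefSeq on GRCm38.p6.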

Additional observations from a re-analysis of the deposited data

How the results depend on the processing

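No paired analysis was possible because each group is 1 library and the labels carry no shared replicate numbers, and no replicate could be left out for the same reason. Of 73 alternatives tried for the member shares and the counts of genes beyond 2-fold, 49 stayed within the interval or within 1.5 times and 24 moved. Asking for 3 caudal genes gave member shares of 0.113% at E7.0, 0.520% at E7.25 and 2.56% in E7.5 posterior, and thinning cells to 5000 UMIs before the rule gave 0.287%, 1.13% and 4.88%. Leaving out cells with endoderm or mesoderm genes gave 5.76% at E7.5 posterior. The order of the 3 libraries stayed. For the comparison with brachyury caudal cells, the count of 18 became 33 after thinning, 64 at 20 CPM and 1491 with no minimum. For the comparison with epiblast cells without caudal genes, 42 became 75 and 1479 at these last settings. With 3 caudal genes, thinning, 20 CPM and no minimum in turn, the count for E7.5 posterior against E7.25 was 180, 198, 189 and 2076 in place of 77. For E7.25 against E7.0 it was 532, 568, 391 and 1761 in place of 130, and for E7.5 posterior against E7.0 it was 211, 340, 180 and 2231 in place of 67. The first and second of these settings leave 9 and 21 members at E7.0, and lower minimums test more genes.

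Of the log2 ratios of 55 genes against brachyury caudal cells under the alternatives, 531 of 605 stayed within their interval and 73 moved, and of those of 32 genes against epiblast cells without caudal genes, 312 of 352 stayed and 39 moved. The direction reversed for few. Apoa1 against brachyury caudal cells had a log2 ratio of −0.21 without endoderm or mesoderm cells. Ttr against epiblast cells without caudal genes was −0.56 with 3 caudal genes. From E7.0 to E7.25, Ttr was 4.11 and Spink1 2.01 with 3 caudal genes, Ttr 1.30 and Spink1 0.011 without endoderm or mesoderm cells, and Fos −0.34 after thinning. From E7.0 to E7.5 posterior, Apoa1 was 1.89 and Ttr 2.25 with 3 caudal genes. The cause was not tested. Removing predicted doublets, a limit of 5% mitochondrial UMIs or 2000 detected genes moved no member share or total count beyond these limits. The split did move: against brachyury caudal cells it was 4 higher and 10 lower at 5% mitochondrial UMIs and 5 and 10 with 3 caudal genes, in place of 9 and 9. Against epiblast cells without caudal genes the 35 higher and 7 lower became 37 and 11 with 3 caudal genes and 45 and 13 after thinning. The E7.0 values against brachyury caudal cells rest on 29 cells and 495860 UMIs, the smallest pool compared.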
